A study of Homo sapiens with 15 samples.

Results

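The 10 genes described here build and organise the postsynaptic side of the neuromuscular junction, the synapse between a motor neuron and a skeletal muscle fibre. They were taken as a named list from the 17999 gene symbols of the expression table, not by their values. CHRNA1, CHRNB1, CHRND, CHRNG and CHRNE encode the subunits of the muscle nicotinic acetylcholine receptor. AGRN, LRP4, MUSK, DOK7 and RAPSN encode the machinery that clusters that receptor under the nerve ending. Of the 10, 9 reached 1 FPKM (fragments per kilobase, scaled to sequencing depth) in at least 1 library, and CHRNE did not.

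The muscle receptor is a pentamer. The fetal form carries the gamma subunit (CHRNG), and in maturing, innervated muscle it is replaced by the adult form, which carries the epsilon subunit (CHRNE) in its place. Agrin released by the motor nerve binds LRP4 on the muscle membrane, LRP4 then activates the receptor tyrosine kinase MuSK together with its cytoplasmic adaptor Dok-7, and rapsyn anchors the receptors into dense clusters.

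The study derived self-renewing neuromesodermal progenitors (srNMPs), cells able to form both spinal cord neurons and skeletal muscle, from embryonic stem cells (ESCs), and differentiated them along both paths. Messenger RNA was sequenced from 15 cultures of H1 and HUES9, both established human ESC lines, and all cells are labelled wild type (WT). Skeletal muscle induction was sampled at day 50 and at day 40. Ventral neurons, dorsal neurons, neuron progenitors after 7 days of inductions labelled RASS and RABC, and srNMPs at passage 25 and passage 8 are all labelled neural induction. The labels leave RASS and RABC unexplained. ESCs had no induction. Each muscle day and the ESC group is 1 HUES9 library, while each of the other 6 groups is 1 H1 and 1 HUES9 library. Replicates are thus different lines rather than repeats of 1 line, muscle and ESC values come from HUES9 alone, and separate cultures or days are not recorded in the labels. The p-values below measure only the spread between these samples, which may be technical.

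Summed FPKM ranged from 290306 to 421109 per library, 10785 to 12102 genes reached 1 FPKM, and relative depth estimated from the smallest values was 0.954 to 1.05. The muscle libraries carried muscle genes: MYOG, a transcription factor of myoblast differentiation, was at 539 FPKM at day 50 and 312 FPKM at day 40. They also carried connective tissue transcripts. A connective tissue marker list (8 of 9 genes in the table) summed to 11409 FPKM at day 50 and 18549.8 FPKM at day 40, against 1.13 to 22.8 FPKM in the other libraries. The RASS libraries stood apart from their line labels. Their HUES9 minus H1 difference across genes correlated negatively with that of all 5 other groups (r of -0.533 to -0.167), whereas the remaining 10 pairs of groups correlated positively (r of 0.0691 to 0.377). Results that rest on RASS are therefore also given with the RASS lines exchanged.

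In muscle, the subunits of the fetal receptor were abundant and the adult one was nearly absent. CHRNA1, CHRNG and CHRND were the 3 most abundant of the 10 genes there. CHRNA1, the subunit that forms the main acetylcholine binding surface, was at 138 FPKM at day 50 and 104 FPKM at day 40, against 0.0124 to 0.886 FPKM in the 13 other libraries. CHRNG was at 140.2 FPKM at day 50 and 95.5 FPKM at day 40, against 0 to 0.101 FPKM elsewhere. CHRND, the delta subunit, was at 93.8 FPKM at day 50 and 59.4 FPKM at day 40, against 0 to 0.902 FPKM elsewhere. None of these ranges overlapped between muscle and the rest. In bulk RNA, fewer cells of a type and less RNA per cell cannot be told apart.

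CHRNB1, the beta subunit, had a different background: 68.9 FPKM at day 50 and 39.7 FPKM at day 40, against 1.23 to 3.70 FPKM in the other 13 libraries, with at least 1 FPKM in all of them. It was the only one of the 5 subunits to be at 1 FPKM or more outside muscle. Set against CHRNA1 in the same library, which FPKM allows because it is per length, CHRNG was at 1.02 times its level at day 50 and 0.919 times at day 40. CHRND was at 0.681 and 0.572 times, at day 50 and day 40 in turn, and CHRNB1 was the lowest of the 4.

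**Figure D1:**
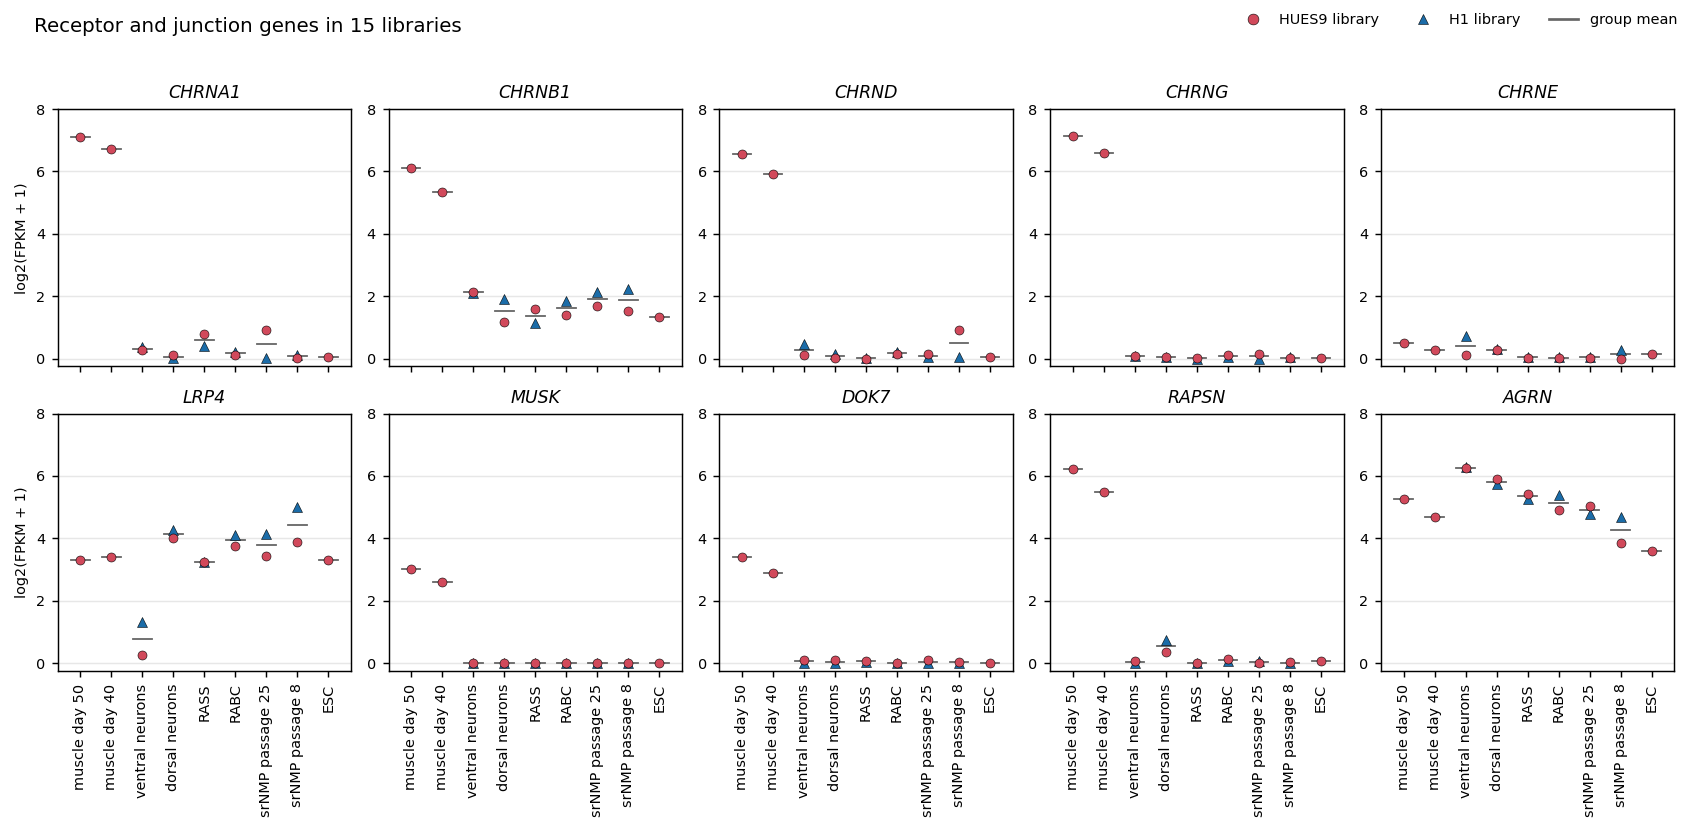
FPKM of the 10 genes in each of the 15 libraries on a log scale, by group. CHRNA1, CHRND and CHRNG stand at 59.4 to 140.2 FPKM in muscle and below 1 FPKM elsewhere, while AGRN and LRP4 are present across groups.

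The adult subunit CHRNE stayed near 0. It was at 0.421 FPKM at day 50 and 0.214 FPKM at day 40, which correspond to 36 and 19 fragments once the values are read as whole multiples of 1 fragment. The exact Poisson 95% intervals were 0.295 to 0.583 FPKM at day 50 and 0.129 to 0.334 FPKM at day 40, and they overlap. These intervals cover counting error only. The muscle values lay inside the range of the neurons, where CHRNE was at 0.652 FPKM in H1 ventral neurons (57 fragments), 0.0821 FPKM in HUES9 ventral neurons, and 0.238 and 0.202 FPKM in H1 and HUES9 dorsal neurons. The H1 ventral library, not a muscle library, held the highest value of the series. Tested without the filter on low values, CHRNE differed by 0.13 ± 0.14 between muscle and neurons (limma adjusted p = 0.521).

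Muscle CHRNG was 333 times CHRNE at day 50 and 446 times at day 40, or 8.38 and 8.80 on the log2 scale. No test was possible, since there is 1 library per day. The smaller ratio at day 50 rests on the 36 against 19 CHRNE fragments, since CHRNG itself was higher at day 50. Adding 1 FPKM to both genes gave log2 ratios of 6.63 at day 50 and 6.31 at day 40, which turns the order of the days round. Outside muscle both genes were above 0 in 10 libraries, where the ratio was 0.0784 to 8.93 and CHRNE was the higher gene in 7.

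CHRNE overlaps C17orf107, MINK1 and GP1BA, which lie on the opposite strand in the GENCODE annotation and are all in the table. The libraries were made with a stranded kit, but strand-aware counting is not stated. Whether reads of CHRNE and of these genes were kept apart is therefore not known. C17orf107 was at 0.383 FPKM at day 50 and 0.450 FPKM at day 40, against 0.923 FPKM in H1 and 2.13 FPKM in HUES9 ventral neurons. The part of these genes in the CHRNE values was not tested. Adult fast myosin heavy chains were also low: MYH2 was at 0.420 FPKM and MYH1 at 0.0795 FPKM at day 50, against 0.362 and 0.0191 FPKM at day 40. The embryonic chain MYH3 was at 1952 FPKM at day 50 and 1304 FPKM at day 40. Other chains were present as well: MYH8 was at 365 FPKM at day 50 and 153 FPKM at day 40, and MYH7 at 31.2 and 17.8 FPKM.

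**Figure D2:**
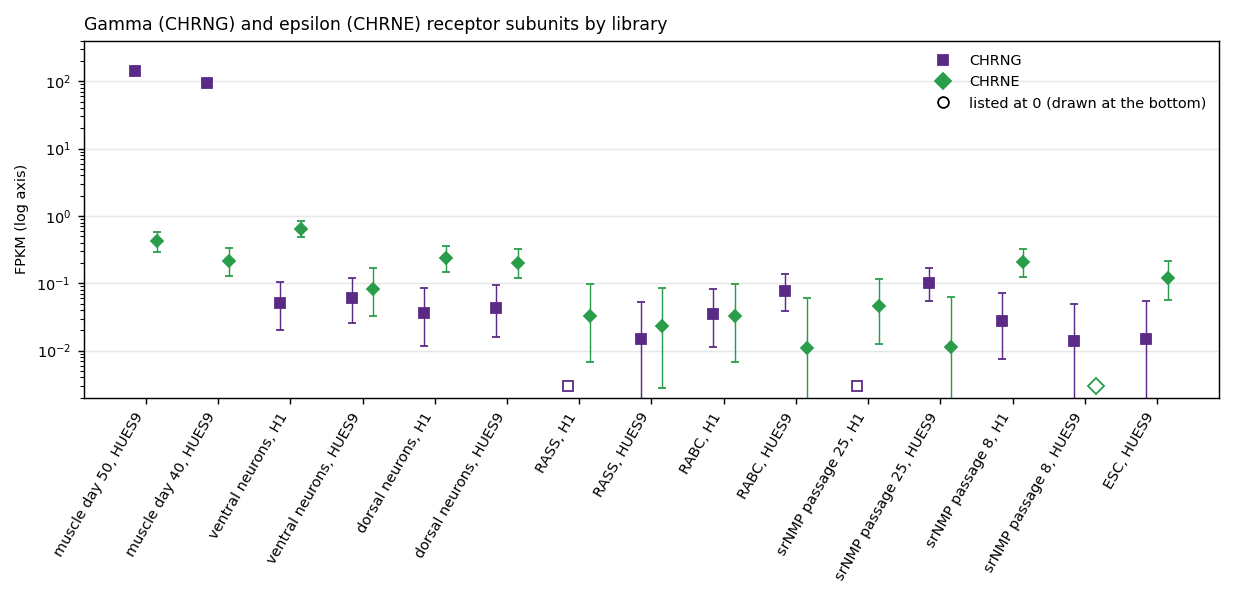
FPKM of CHRNG and CHRNE on a log scale in each library, with exact Poisson 95% intervals from the recovered fragment counts and open symbols at the bottom for values of 0. In muscle CHRNG is at 140.2 and 95.5 FPKM and CHRNE at 0.421 and 0.214 FPKM, while outside muscle both lie below 1 FPKM.

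Promoter windows of subunits on both sides of this contrast are shown, because CHRNA1, CHRND and CHRNB1 were high in muscle and CHRNE was not. Each is the 250 bases before the annotated start, from RefSeq on GRCh38.p14. The submitters name build hg18, and no coordinate was joined to the expression files. Capitals mark the E-box CANNTG, the letters bound by basic helix-loop-helix factors such as MyoD and myogenin, and the N-box CCGGAA or its reverse complement TTCCGG, the letters bound by ETS factors and known from synaptic promoters. The E-box letters are a palindrome, so both strands were searched at once, and no E-box overlapped an N-box in these windows. Of the 10 genes, 6 matched the table, with 7 windows.
CHRNA1, chr2:174764473-174764722, minus strand: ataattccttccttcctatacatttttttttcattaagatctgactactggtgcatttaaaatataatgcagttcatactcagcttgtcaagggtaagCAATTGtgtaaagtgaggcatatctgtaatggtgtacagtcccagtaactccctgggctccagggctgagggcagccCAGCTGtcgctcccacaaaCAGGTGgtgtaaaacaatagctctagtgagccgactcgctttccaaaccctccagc
CHRND, chr2:232525910-232526159, plus strand: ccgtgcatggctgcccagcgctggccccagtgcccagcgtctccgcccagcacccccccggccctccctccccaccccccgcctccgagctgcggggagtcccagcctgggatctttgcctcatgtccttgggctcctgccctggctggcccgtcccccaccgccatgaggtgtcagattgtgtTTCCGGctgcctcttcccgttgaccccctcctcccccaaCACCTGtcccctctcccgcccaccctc
CHRNB1, chr17:7444811-7445060, plus strand: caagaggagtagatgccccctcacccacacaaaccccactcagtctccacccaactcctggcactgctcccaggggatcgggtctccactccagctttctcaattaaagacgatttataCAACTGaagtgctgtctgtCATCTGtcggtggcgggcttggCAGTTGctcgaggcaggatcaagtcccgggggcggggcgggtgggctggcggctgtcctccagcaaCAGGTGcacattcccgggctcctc
CHRNE, chr17:4903099-4903348, minus strand: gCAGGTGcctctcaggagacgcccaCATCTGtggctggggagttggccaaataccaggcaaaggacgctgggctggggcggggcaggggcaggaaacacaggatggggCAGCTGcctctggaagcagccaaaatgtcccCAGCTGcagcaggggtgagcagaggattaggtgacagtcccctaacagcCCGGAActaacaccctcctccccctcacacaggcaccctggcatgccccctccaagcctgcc

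CHRNA1 held 3 E-boxes, of which CAGCTG began 75 bases and CAGGTG began 56 bases before the start. CHRND held 1 E-box, CACCTG, which began 27 bases before the start, and 1 N-box, which began 66 bases before it. CHRNB1 held 4 E-boxes and no N-box. CHRNE held 4 E-boxes as well, among them 2 copies of CAGCTG, and 1 N-box that began 62 bases before the start. E-boxes thus stood in these 3 windows of subunits that were high in muscle and in that of CHRNE, which was not. The windows of CHRNG, RAPSN, LRP4 and AGRN were not analysed here, so the fetal subunit is not part of this comparison. Over 35116 promoter windows of the same length, 61.8% held an E-box, 14.0% held CAGCTG and 14.5% held an N-box. The matches are descriptions of letters, not of bound sites.

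The clustering machinery divided into members found almost only in muscle and members found everywhere. RAPSN, encoding rapsyn, was at 74.3 FPKM at day 50 and 43.4 FPKM at day 40, against 0 to 0.680 FPKM in the other 13 libraries. DOK7 was at 9.55 FPKM at day 50 and 6.42 FPKM at day 40, against 0 to 0.0685 FPKM elsewhere. MUSK was at 7.00 FPKM at day 50 and 5.11 FPKM at day 40 and was listed at 0 in 12 of the 13 other libraries. The exception, H1 dorsal neurons, had 0.00642 FPKM, which is 2 fragments. A count of 0 allowed up to 0.0124 FPKM at most (upper exact Poisson 95% bound). In muscle RAPSN was thus at 0.539 times CHRNA1 at day 50 and 0.418 times at day 40, while MUSK was at 0.0508 and 0.0492 times.

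AGRN and LRP4 were detected in all 15 libraries. AGRN, whose nerve-made splice forms drive clustering but whose gene is used in many tissues, was at 37.5 FPKM at day 50 and 24.5 FPKM at day 40. Those levels lie inside the range of the other libraries, 10.99 to 76.4 FPKM. LRP4, the agrin receptor, was at 8.91 FPKM at day 50 and 9.66 FPKM at day 40, inside a range of 0.186 to 30.9 FPKM elsewhere. The table gives 1 value per gene, so splice forms of AGRN were not measured.

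Against srNMPs, the cells the muscle was grown from, 7 of the 9 tested genes rose in muscle by limma at an adjusted p under 0.05, and 0 fell. Over all 14129 tested genes, 18.2% rose and 31.6% fell, 49.8% together. In 6 of the 9 (CHRNA1, CHRND, CHRNG, MUSK, DOK7 and RAPSN) only the muscle libraries reached the 1 FPKM needed for testing. These 6 therefore had to differ, and neither their count nor their p-values support anything by themselves. CHRNG averaged 118 FPKM in muscle and 0.0356 ± 0.0450 FPKM in srNMPs (SD, n = 4), and rose by 6.80 ± 0.10 (log2(FPKM + 1) difference ± standard error, adjusted p = 2.38e-08). CHRNA1 averaged 121 FPKM in muscle and 0.251 ± 0.425 FPKM in srNMPs and rose by 6.55 ± 0.24 (adjusted p = 1.08e-06). CHRND rose by 5.91 ± 0.24 and RAPSN by 5.86 ± 0.13 on the same scale.

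CHRNB1, which was present in srNMPs at 2.82 ± 0.873 FPKM (SD, n = 4), averaged 54.3 FPKM in muscle and rose by 3.99 ± 0.28 (limma adjusted p = 4.39e-05). Adding 1 FPKM shrinks the differences of weakly expressed genes: DOK7 rose by 3.09 ± 0.07 and MUSK by 2.81 ± 0.07, and no fold is given for MUSK because all 4 srNMP libraries are at 0. The muscle groups have no replicates and were assumed to vary like the others, so these errors do not measure how muscle cultures vary.

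LRP4 and AGRN did not pass the test between muscle and srNMPs. LRP4 averaged 9.28 FPKM in muscle and 17.7 ± 9.22 FPKM in srNMPs, a difference of -0.46 ± 0.27 (limma adjusted p = 0.208). AGRN averaged 31.0 FPKM in muscle and 23.9 ± 7.70 FPKM in srNMPs, a difference of 0.45 ± 0.26 (adjusted p = 0.185). Neither result shows that the levels are equal. Tested without the filter on low values, CHRNE differed by 0.39 ± 0.14 (adjusted p = 0.0618), at 0.318 FPKM in muscle and 0.0658 FPKM in srNMPs.

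Against both neuron cultures together, 8 of the 9 genes rose in muscle and 1 fell, beside 14.6% rising and 31.9% falling, 46.5% together, among all tested genes. The same 6 genes passed the filter only through muscle, so here too their count supports nothing by itself. The receptor subunits and MUSK, DOK7 and RAPSN gave values close to those against srNMPs, from 2.80 ± 0.07 for MUSK to 6.78 ± 0.10 for CHRNG. Both comparisons share the muscle libraries. AGRN fell by 1.01 ± 0.26 (limma adjusted p = 0.0158), with 31.0 FPKM in muscle and 65.5 ± 11.9 FPKM in neurons (SD, n = 4). The AGRN call was lost without the day 40 muscle library (-0.71, adjusted p = 0.136), without HUES9 ventral neurons (adjusted p = 0.0541) and without HUES9 dorsal neurons (adjusted p = 0.0643).

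The LRP4 value in that comparison hides a split. LRP4 differed by 1.19 ± 0.27 between muscle and neurons (limma adjusted p = 0.0105), yet the neuron average joins 0.829 FPKM in ventral and 16.7 FPKM in dorsal neurons, on either side of the 9.28 FPKM of muscle. The LRP4 call was also lost without the cell line as a block (0.90, adjusted p = 0.0866).

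**Figure D3:**
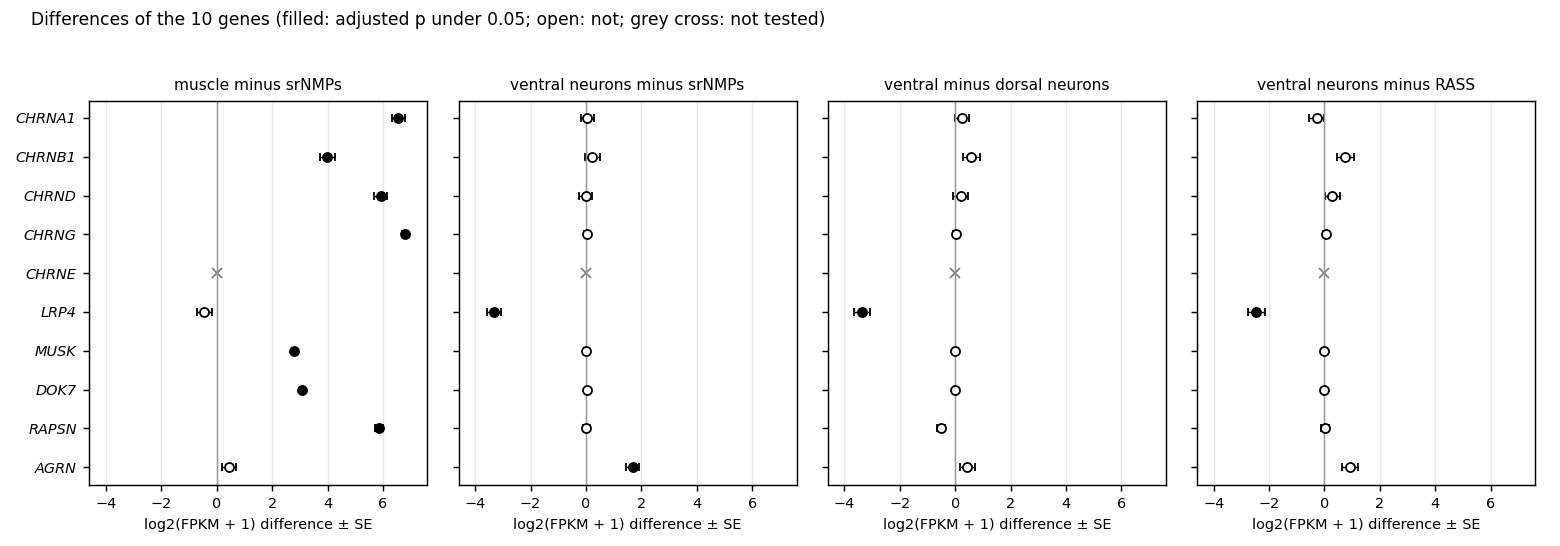
Difference on the log2(FPKM + 1) scale with its standard error for the 10 genes in 4 limma comparisons, with filled circles at an adjusted p under 0.05 and a grey cross, drawn at 0, for the untested CHRNE. In muscle against srNMPs 7 genes are filled, from 2.81 to 6.80, whereas in ventral neurons against srNMPs only LRP4 (-3.33) and AGRN (1.68) are filled.

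Other cell types moved with the muscle comparison. All 8 connective tissue markers in the table rose in muscle against srNMPs, as did all 14 tested contractile genes and 6 of 8 tested myogenic regulators. Over all tested genes 18.2% rose. Genes of these lists that reached 1 FPKM only in muscle, such as MYOD1, MYOG and MYH8, had to differ, so these counts support nothing by themselves. The untested MYH1, MYH2 and MYF5 were below 1 FPKM in muscle. Summed contractile genes were at 11586 FPKM at day 50 and 7972 FPKM at day 40. The motor neuron list summed to 3.55 FPKM at day 50 and 3.45 FPKM at day 40, against 119 to 123 FPKM in ventral neurons, and CHAT, which makes acetylcholine, was at 0 in both muscle libraries. The pan-neuronal list summed to 143 FPKM at day 50 and 112 FPKM at day 40, against 2198 to 2505 FPKM in ventral neurons. Those muscle sums were also below srNMPs (284 to 474 FPKM at passage 25, 213 to 305 FPKM at passage 8) and ESCs (246 FPKM). At day 50 the highest genes of the list were DCX (76.3 FPKM) and NEFL (51.5 FPKM), followed by MAP2 (7.24 FPKM) and TUBB3 (3.85 FPKM). Of its 10 genes, 1 rose and 2 fell in muscle against srNMPs. The part of these other cells in the muscle values was not tested.

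Of 30 further junction genes, 29 were tested, and 12 rose and 3 fell in muscle against srNMPs. Among all tested genes 18.2% rose and 31.6% fell, so the share called in either direction is near the 49.8% of all genes. The median difference of the list was 0.43, beside -0.22 over all tested genes. LAMA4, a laminin chain of the synaptic basal lamina, was at 61.9 FPKM at day 50 and 72.6 FPKM at day 40, against 0.280 FPKM at passage 25 and 0.441 FPKM at passage 8 (5.53 ± 0.35, limma adjusted p = 2.26e-05). PDZRN3, a ubiquitin ligase that acts on MuSK, rose by 4.51 ± 0.57, with 33.9 FPKM at day 50 and 30.5 FPKM at day 40. The neuregulin receptor ERBB3 rose by 3.50 ± 0.50 and the syntrophin SNTB1 by 3.45 ± 0.40. LAMB2, another synaptic laminin chain, had the highest muscle level of the list, at 67.6 FPKM at day 50 and 89.2 FPKM at day 40. LAMA4 and LAMB2 were higher at day 40, as was the connective tissue list, and ERBB3 is also a Schwann cell marker, whose list summed to 120 FPKM at day 50 and 78.9 FPKM at day 40.

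In ventral neurons, AGRN was higher and LRP4 lower than in srNMPs, and the other tested junction genes did not pass the test. AGRN, which motor neurons supply to the junction, was at 76.4 FPKM in H1 and 74.7 FPKM in HUES9 ventral neurons, the highest levels of the series. In srNMPs it was at 26.2 FPKM (H1) and 31.7 FPKM (HUES9) at passage 25, and at 24.6 FPKM (H1) and 13.3 FPKM (HUES9) at passage 8. The groups did not overlap. AGRN rose by 1.68 ± 0.24 (limma adjusted p = 0.0019), higher in both lines against both passages, and the call held in all 24 settings tried. Of the 9 genes, 1 rose and 1 fell, beside 25.8% rising and 19.1% falling, 44.9% together, among all tested genes. CHRNA1, CHRND, CHRNG, MUSK, DOK7 and RAPSN passed the filter only through muscle and were below 1 FPKM on both sides here. They could hardly be called, so the count out of 9 and the share over all genes are not like for like.

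LRP4 went the other way. It was at 1.47 FPKM in H1 and 0.186 FPKM in HUES9 ventral neurons. In srNMPs it was at 16.5 FPKM (H1) and 9.71 FPKM (HUES9) at passage 25, and at 30.9 FPKM (H1) and 13.8 FPKM (HUES9) at passage 8. LRP4 fell by 3.33 ± 0.26 (limma adjusted p = 0.000262), again called in all 24 settings. By line, the log2(FPKM + 1) differences were -2.82 against passage 25 and -3.69 against passage 8 in H1, and -3.17 and -3.64 in HUES9. Without both RASS libraries, an alternative added after the data were seen, the LRP4 difference was -3.33 (adjusted p = 0.000517) and the AGRN difference 1.68 (adjusted p = 0.00374).

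LRP4 was high in dorsal neurons. At 18.3 FPKM in H1 and 15.2 FPKM in HUES9 they stood above both ventral libraries, and LRP4 differed by -3.37 ± 0.30 between ventral and dorsal neurons (limma adjusted p = 0.00315). It was the 1 gene of the 9 called there, beside 0.573% of all tested genes called lower and 2.04% called in either direction. Genes that passed the filter only through muscle were below 1 FPKM on both sides here too, which leaves little room for a call. Fitted on these 4 libraries alone, 0 of all genes were called and LRP4 had an adjusted p of 0.242. AGRN was at 75.6 ± 1.15 FPKM in ventral and 55.5 ± 4.32 FPKM in dorsal neurons (SD, n = 2), which did not overlap but did not pass the test (0.44 ± 0.28, adjusted p = 0.520). RAPSN, at 0 and 0.0370 FPKM in ventral and 0.680 and 0.265 FPKM in dorsal neurons (H1 and HUES9), did not pass it either (adjusted p = 0.141).

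Against the 7-day RASS progenitors, LRP4 was again the 1 gene called of the 9, beside 9.98% of all tested genes called lower. In either direction 23.7% of all tested genes were called. It was at 8.40 FPKM in H1 and 8.45 FPKM in HUES9 RASS progenitors and the difference of ventral neurons minus RASS was -2.46 ± 0.30 (limma adjusted p = 0.00304). AGRN missed the threshold at 0.91 ± 0.28 (adjusted p = 0.054), with 37.2 and 42.2 FPKM in RASS (H1 and HUES9). With the RASS lines exchanged, 3 genes were called: LRP4, AGRN and CHRNB1. The share of all genes called with the lines exchanged is not given here, so that count has no background beside it. On the 4 libraries alone 0 were called. Genes that passed the filter only through muscle were again below 1 FPKM on both sides, which leaves little room for a call.

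The receptor subunits themselves stayed low in ventral neurons. CHRNA1 was at 0.287 FPKM in H1 and 0.205 FPKM in HUES9, CHRND at 0.375 and 0.0785 FPKM, and CHRNG at 0.0511 and 0.0599 FPKM. CHRNB1, at 3.32 and 3.41 FPKM, was the only subunit above 1 FPKM. None of the 4 tested subunits passed the test against srNMPs, with a median difference of 0.04 beside 0.08 over all genes. CHRNA1, CHRND and CHRNG entered this test only through muscle and were below 1 FPKM on both sides. On log2(FPKM + 1) they could hardly be called, so the absence of calls and the median say little about them. MUSK was at 0 in both ventral libraries, and DOK7 at 0.0107 and 0.0606 FPKM.

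The list of neuronal nicotinic subunits, which form other receptors, gives the contrast. Of its 10 genes, 5 were tested. In ventral neurons 4 rose and 1 fell against srNMPs: CHRNA4 rose by 3.51 (limma adjusted p = 0.000393), CHRNB2 by 2.07 and CHRNA3 by 1.41, while CHRNA5 fell by 1.21. Among all tested genes 25.8% rose and 19.1% fell in that comparison. Between ventral and dorsal neurons 0 of the 5 were called, beside 2.04% of all tested genes, with a median of -0.87. CHRNA3, CHRNA5, CHRNB2 and CHRNB4 were lower in ventral neurons and CHRNA4 higher. CHRNA3 was at 3.75 FPKM in ventral and 13.3 FPKM in dorsal neurons, and CHRNA4 at 14.6 and 5.22 FPKM. The rise is thus not shown to be particular to ventral neurons. All 5 fell in muscle against neurons, beside 31.9% of all tested genes. None of the 10 reached 1 FPKM in muscle, so the 5 entered the tests only through other libraries and their count supports nothing by itself. The motor neuron list was high in ventral neurons, with CHAT at 8.04 FPKM in H1 and 7.63 FPKM in HUES9, against 0.0208 and 0.0874 FPKM in dorsal neurons. Among the 30 further junction genes, ACHE, the enzyme that breaks down acetylcholine at the synapse, was at 17.1 FPKM in ventral and 2.49 FPKM in dorsal neurons (2.23 ± 0.41, limma adjusted p = 0.0473). DTNA, a dystrobrevin of the dystrophin complex, was the other one called (1.83 ± 0.33, adjusted p = 0.0430). These 2 of the 29 tested stand beside 1.47% of all tested genes called higher and 2.04% called in either direction. Fitted on the ventral and dorsal libraries alone, no gene was called, so neither call held there. Against srNMPs, 10 of the 29 tested rose and 3 fell in ventral neurons, beside 25.8% rising and 19.1% falling among all tested genes, a share near that background. The median was 0.15, beside 0.08 over all tested genes. ACHE rose by 3.37 ± 0.36, the adhesion molecule NCAM1 by 3.23 ± 0.44 and the neuregulin receptor ERBB4 by 2.50 ± 0.64, while PHLDB2 fell by 2.85 ± 0.33.

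Against ESCs, 0 of the 9 genes were called in srNMPs by limma, beside 16.7% of all tested genes (8.73% higher and 7.93% lower). The genes that passed the filter only through muscle were below 1 FPKM on both sides and could hardly be called, so count and share are not like for like. ESCs are 1 library, which was assumed to vary like the other groups. At an unadjusted p under 0.05 there was 1, AGRN, at 23.9 ± 7.70 FPKM in srNMPs (SD, n = 4) and 10.99 FPKM in ESCs (0.93 ± 0.32, adjusted p = 0.095). That limit was passed by 4437 of all 14129 tested genes, so the 1 member does not stand out. LRP4 was at 17.7 FPKM in srNMPs and 8.89 FPKM in ESCs (0.51 ± 0.35, adjusted p = 0.368).

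From the lowest to the highest mean, AGRN ran from ESCs (10.99 FPKM) through srNMPs at passage 8 (19.0 FPKM), muscle day 40, srNMPs at passage 25 (28.9 FPKM), RABC (34.8 FPKM), muscle day 50 and RASS (39.7 FPKM) to dorsal (55.5 FPKM) and ventral neurons (75.6 FPKM). From passage 25 to RASS each group overlapped the next in range, as did passage 8 and muscle day 40. LRP4 ran from ventral neurons (0.829 FPKM) through RASS (8.42 FPKM), ESCs (8.89 FPKM), muscle day 50 and muscle day 40 to srNMPs at passage 25 (13.1 FPKM), RABC (14.4 FPKM), dorsal neurons (16.7 FPKM) and srNMPs at passage 8 (22.3 FPKM). Its 4 highest groups overlapped in range with their neighbours, and the 4 groups between 8.42 and 9.66 FPKM lay close together. For CHRNA1, CHRND, CHRNG, MUSK, DOK7 and RAPSN the 2 muscle days stood first, with neighbouring groups below them mostly overlapping at under 1 FPKM.

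Between the muscle days, 8 of the 9 genes at 1 FPKM or more were higher at day 50 by more than 0.32 on the log2(FPKM + 1) scale, a limit chosen after the data were seen. Over all 11756 genes at 1 FPKM in either library, 16.1% were and 9.11% were lower by as much. The medians were 0.55 for the 9 genes and 0.08 for all genes. With 1 library per day there is no test and no replicate check. CHRNB1 showed the largest difference, 0.78, with RAPSN at 0.76, CHRND at 0.65 and AGRN at 0.60. CHRNG was higher by 0.55 and CHRNA1 by 0.40. LRP4 was the exception, at -0.11.

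Contractile genes moved with them: 12 of 14 passed the same limit upward, with a median of 0.65, as did 7 of 8 myogenic regulators with a median of 0.68. Connective tissue markers did not, with 0 past the limit upward, 4 of 8 past it downward and a median of -0.33. Of the 27 further junction genes at 1 FPKM, 6 passed upward and 3 downward, with a median of 0.15. Schwann and neural crest markers passed upward in 6 of 7 (median 0.54). The part of cell composition in these differences was not tested. For scale, HUES9 and H1 libraries of 1 group differed by up to 0.90 in CHRNA1, 0.86 in CHRND, 0.84 in AGRN and 1.11 in LRP4, each more than the difference between the days. The largest line difference was 0.75 in CHRNB1, 0.41 in RAPSN and 0.14 in CHRNG, less than their difference between the days. Outside muscle the subunits and RAPSN were at much lower levels, whereas AGRN and LRP4 were not. CHRNG was at most 0.101 FPKM and RAPSN at most 0.680 FPKM there. With 1 FPKM added, their line differences could not have reached their difference between the days. For these genes the line differences thus say nothing about how muscle cultures vary.

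**Figure D4:**
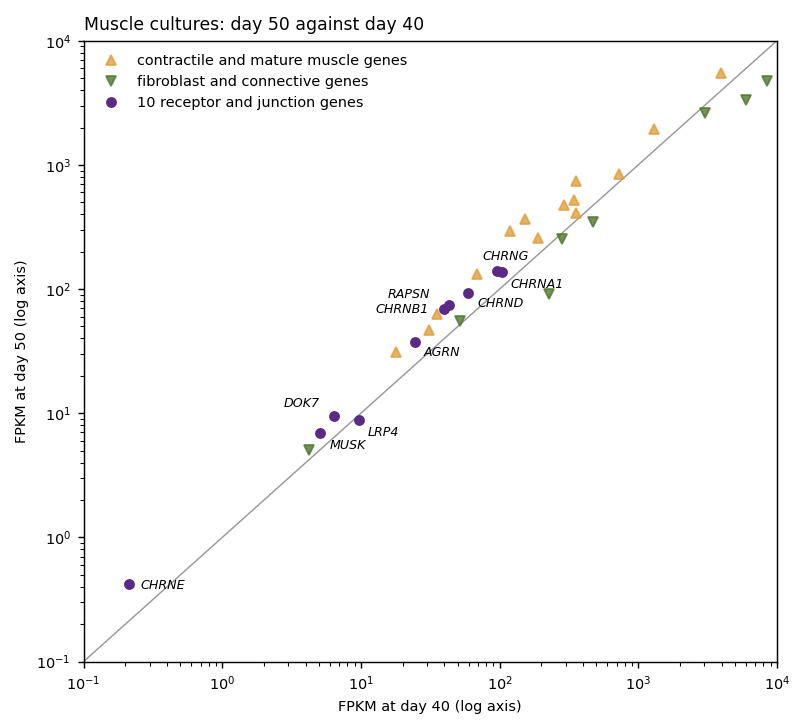
FPKM at day 50 against FPKM at day 40, both on log axes, for the 10 genes (circles), contractile genes (upward triangles) and connective tissue genes (downward triangles), with a line of equal levels and 1 library per day. LRP4 is the only one of the 10 below the line, at 8.91 and 9.66 FPKM, and CHRNE lies apart at 0.421 and 0.214 FPKM.

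Genes most like a junction gene across the 15 libraries were found by Pearson's r on the log2 scale over 11271 genes. This is a description with no p, since libraries of 1 culture type share their state. CHRNG was matched most closely by CAV3, the muscle caveolin, by MYMK, the myoblast fusion protein, by ATP1B4 and by HSPB3, all at r above 0.999. CHRNA1 was matched by LDB3 (r = 0.997), HOXA11 (0.995), ACVRL1 (0.995) and CHRNG (0.994). Both CHRNG and CHRNA1 were below 1 FPKM in all 13 libraries outside muscle. Their r is thus set mainly by the 2 muscle libraries, and genes found almost only in muscle reach high values. AGRN was matched by TECPR1 (0.985), POMT1 (0.969), FAM171A2 (0.963) and FOXK1 (0.959), and LRP4 less closely by GLI3 (0.875), BMP2K (0.863), LPAR4 (0.791) and DCLRE1B (0.783). CHRNE, with 57 fragments at most, was matched by NDUFA4L2 (0.910), SLC44A2 (0.897), PITPNM3 (0.893) and EPS15 (0.877).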

How the data were processed

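Expression of 17999 genes was measured in 15 libraries. The authors deposited FPKM values, used here as listed. Libraries were stranded mRNA libraries, per the labels' protocols. Cufflinks, HTSeq, HISAT2, Trimmomatic and build hg18 are named in the submitters' processing notes. Their versions and roles are not given in the sources used here. 1 value column matched no sample and was not used. The files hold no counts. The 10 members' values were whole multiples, within 0.01, of 1 fragment, which gave the fragment counts and exact Poisson 95% intervals.

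A gene entered the tests if any library listed it at 1 FPKM or more (14129 genes). On log2(FPKM + 1), a model of group means with the cell line as replicate block was fitted with limma 3.58.1 (R 4.3.3) (5 residual and 2.16 prior degrees of freedom), with two-sided tests adjusted by Benjamini and Hochberg over all genes and calls at an adjusted p under 0.05. The pairing comes from the cell line in the labels and was checked by correlating line differences between groups, where RASS differed in sign. The fit was tested on simulated data. The alternatives were another pseudocount (0.1), other filters, equal totals, quantile normalization, no block, exchanged RASS lines, fewer libraries and each library left out. No test was run where a comparison holds 1 library per side.

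All 10 genes are named with their values. From 10 further lists (other junction genes, neuronal nicotinic subunits, myogenic, contractile, motor neuron, pan-neuronal, neural progenitor, Schwann and neural crest, connective tissue and pluripotency genes) up to 4 called genes with the largest change per comparison, and up to 3 of the highest level, could be named. The members and lists were chosen with earlier results of these data known.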

Additional observations from a re-analysis of the deposited data

Results flagged for a closer look

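For 2 genes a difference ran in opposite directions in the 2 lines, by at least 0.2 in each, which was not tested. Both are below 1 FPKM in these libraries. Smaller opposite differences, such as that of CHRNB1 in ventral neurons against srNMPs at passage 8 (-0.12 in H1 and 0.61 in HUES9), were not counted. CHRNA1 in ventral neurons against srNMPs at passage 25 differed by 0.35 in H1 (0.287 and 0.0124 FPKM) and by -0.65 in HUES9 (0.205 and 0.886 FPKM), on the log2(FPKM + 1) scale. CHRND in ventral neurons against srNMPs at passage 8 differed by 0.39 in H1 (0.375 and 0.0462 FPKM) and by -0.82 in HUES9 (0.0785 and 0.902 FPKM). Each rests on 1 HUES9 srNMP library near 0.9 FPKM.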

How the results depend on the processing

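No called difference reversed under the alternatives run. The contrast-only fits called 1665 genes (7034 with all libraries) for muscle against srNMPs, 3636 (6339) for ventral neurons against srNMPs, 0 (288) for ventral against dorsal neurons, 0 (3354) against RASS and 365 (2354) for srNMPs against ESCs, where HUES9 alone gave 1389. Of the 9 junction genes, 0 were then called against dorsal neurons and 0 against RASS. Against RASS, 2 were called with quantile normalization, 2 with no replicate block and 3 with the RASS lines exchanged, against 1 as reported. The shares of all genes called under these settings are not set beside these counts, which are therefore not read as a result. The log2 ratio of CHRNG to CHRNE with 1 FPKM added was 6.63 at day 50 and 6.31 at day 40. Leaving out each library gave 5084 to 7497 genes and 7 to 8 members for muscle against srNMPs, 4541 to 7202 and 8 to 9 against neurons, 3782 to 6970 and 2 to 2 for ventral neurons against srNMPs, 137 to 412 and 1 to 1 against dorsal neurons, 1193 to 3925 and 1 to 2 against RASS, and 1503 to 2705 and 0 to 1 for srNMPs against ESCs. The lowest counts came without HUES9 ventral neurons (3782), HUES9 dorsal neurons (137), H1 RASS (1193) and HUES9 srNMPs at passage 25 (1503). Ventral against dorsal calls were 173 and 170 without H1 and HUES9 RABC and 176 and 175 without H1 and HUES9 passage 25, and ventral against RASS calls were 1910 and 2099 without H1 and HUES9 ventral neurons. Without the block, the LRP4 call of muscle against neurons was lost, as it was on the contrast libraries alone (adjusted p = 0.0700) and in HUES9 alone (0.403), where AGRN was lost too (0.0924). LRP4 against RASS was lost on the contrast libraries alone (0.0839). The cause was not tested. Equal totals moved the share of calls that were higher to 49.25% from 36.48% for muscle against srNMPs and to 71.99% from 57.47% for ventral neurons against srNMPs, and quantile normalization gave 46.18% (31.35%) for muscle against neurons, 45.34% for ventral neurons against srNMPs, 56.59% (71.88%) against dorsal neurons and 46.39% (57.96%) against RASS. The median of all genes moved to -0.01 from -0.22, to 0.30 from 0.08 and, by quantile normalization, to -0.10 from -0.34. Without both RASS libraries, added after the data were seen, 7 of the 9 genes were called for muscle against srNMPs, 9 against neurons, 2 for ventral neurons against srNMPs and 1 against dorsal neurons, as with them. CHRNE, below 1 FPKM throughout, is limited by depth.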
